A study of Rattus norvegicus with 9 samples.

Results

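The 8 genes described here carry out the urea cycle, the hepatic pathway that turns ammonia into urea. They were chosen by name, as the genes that encode the enzymes of the cycle (Cps1, Otc, Ass1, Asl and Arg1), the enzyme that makes the activator of its first step (Nags) and a pair of mitochondrial carriers that serve it (Slc25a15 and Slc25a13). All 8 were among the 16730 genes listed in both deposited tables, and all 8 had enough counts to be tested in every comparison. Polyadenylated RNA was sequenced from the livers of 9 male Sprague-Dawley rats, 3 per group, and the reads were counted on genes. The normal control group received saline in place of carbon tetrachloride (CCl4). The model group received CCl4 at 2 ml/kg by gavage for 9 weeks, which is a standard way to scar a rodent liver, since hepatocytes turn CCl4 into a reactive radical. The TA group received the same CCl4 course and then tormentic acid (TA), a triterpenoid from the herb Potentilla chinensis, for 6 weeks at 3 mg/kg. No dose stands in the labels of the TA libraries, and the one given is that of the study's design. All rats were fasted for 12 h before the livers were taken. The study asked how the transcriptome differed between fibrotic and normal livers (Model VS Normal) and between treated and fibrotic livers (TA VS Model), and TA VS Normal was added here. All comparisons are of whole liver tissue, in which fewer hepatocytes and less RNA per hepatocyte cannot be told apart.

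Ammonia is toxic to the brain, and the liver removes it in a cycle that is split between the mitochondria and the cytosol. Inside the mitochondria, N-acetylglutamate synthase (Nags) makes the obligate activator of carbamoyl phosphate synthetase (Cps1), which joins ammonia to bicarbonate, and ornithine transcarbamylase (Otc) transfers the product to ornithine to give citrulline. In the cytosol, argininosuccinate synthase (Ass1) joins citrulline to aspartate, argininosuccinate lyase (Asl) splits off fumarate and leaves arginine, and arginase (Arg1) cleaves arginine to urea and ornithine. Slc25a15 carries ornithine into the mitochondria in exchange for citrulline, and Slc25a13 (citrin) exports the aspartate that Ass1 uses. The full cycle runs in hepatocytes, mostly in those near the portal vein, and the expression of its genes responds to dietary protein, fasting, glucagon and glucocorticoids.

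The promoters of 7 of the 8 genes, all but Arg1, were matched by symbol in the RefSeq promoter sequences of the rat assembly GRCr8. The 250 bases before the annotated start are printed 5′ to 3′ for 4 of them. Otc is shown because it had the smallest adjusted p of the members in Model VS Normal, Ass1 because it was the most abundant, Cps1 because it catalyses the first step, and Slc25a13 because its pattern over the livers was unlike that of the other members. Capitals mark a match, on either strand, to 1 of 5 short motifs that were searched, namely TATAAA (the TATA box), CAAAGNNCA (bound by HNF4), TTGCNNAA (bound by C/EBP factors), TGACG (from the cyclic AMP response element) and TGTTCT (from the glucocorticoid response element).
Otc: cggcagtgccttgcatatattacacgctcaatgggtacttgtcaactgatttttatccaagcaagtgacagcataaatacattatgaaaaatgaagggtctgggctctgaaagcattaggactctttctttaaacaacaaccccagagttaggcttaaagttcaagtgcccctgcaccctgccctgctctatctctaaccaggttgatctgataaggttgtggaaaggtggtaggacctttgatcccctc
Cps1: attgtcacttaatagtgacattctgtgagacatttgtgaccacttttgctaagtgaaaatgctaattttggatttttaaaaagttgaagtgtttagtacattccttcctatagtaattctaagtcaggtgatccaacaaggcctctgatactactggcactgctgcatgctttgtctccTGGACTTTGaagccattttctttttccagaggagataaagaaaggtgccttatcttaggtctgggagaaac
Ass1: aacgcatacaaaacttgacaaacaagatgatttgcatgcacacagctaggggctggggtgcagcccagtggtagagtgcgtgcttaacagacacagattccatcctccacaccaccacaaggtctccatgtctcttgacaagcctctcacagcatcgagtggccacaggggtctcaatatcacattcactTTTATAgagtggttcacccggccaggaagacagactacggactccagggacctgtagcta
Slc25a13: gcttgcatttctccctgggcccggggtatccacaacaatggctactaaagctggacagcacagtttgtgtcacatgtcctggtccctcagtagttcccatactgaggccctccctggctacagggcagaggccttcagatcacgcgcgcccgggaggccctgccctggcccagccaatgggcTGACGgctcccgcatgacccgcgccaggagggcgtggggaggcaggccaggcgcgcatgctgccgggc
These windows lie at chrX:15202474-15202723 on the minus strand, chr9:76063613-76063862 on the plus strand, chr3:35149480-35149729 on the plus strand and chr4:35328361-35328610 on the minus strand, respectively. The Cps1 window held the HNF4 motif on the reverse strand, as TGGACTTTG, with its first base 71 bases before the start. The Ass1 window held the TATA motif on the reverse strand, as TTTATA, 60 bases before the start, and the Slc25a13 window held TGACG 68 bases before the start. The windows of Otc, Nags, Slc25a15 and Asl matched none of the 5 motifs. Of the 33469 promoter windows of this length in the table, 5.22% matched CAAAGNNCA, 12.9% TATAAA, 9.22% TTGCNNAA, 18.2% TGACG and 17.5% TGTTCT. The motifs overlap no other in these windows, and a match is a description of the letters alone.

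Between 13156735 and 18090405 reads were counted on genes per liver. The first model rat stood apart. Its 50 most abundant genes took 27.9% of its reads, against 40.4% to 45.7% in the other 8 livers, and its TMM normalization factor was 1.69, against 0.816 to 1.16 in the others. The livers expressed the secretory genes that define hepatocytes (16 of 16 listed, among them albumin, apolipoproteins and fibrinogen), and the mean level of these genes in the first model rat was 20.5% of the normal geometric mean. It was 60.2% and 73.7% in the other model rats and 78.7% to 97.6% in the TA rats. Fold changes of the members that involve the model group are therefore given with and without the first model rat.

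Compared per length in the normal control group, Ass1 was the most abundant member, at 1089 ± 172 FPKM (fragments per kilobase, scaled to the mapped reads, mean ± SD, n = 3). Arg1 followed at 685 ± 180 FPKM and Asl at 519 ± 71.3 FPKM, and the livers of these neighbours overlapped. Cps1 had 269 ± 69.4 FPKM and Otc 168 ± 26.0 FPKM, and neither overlapped its neighbours in the order. The ornithine carrier Slc25a15 had 94.9 ± 13.5 FPKM and did not overlap with Nags, at 46.8 ± 6.23 FPKM, whereas Slc25a13, at 28.7 ± 18.1 FPKM, overlapped with Nags. The order was the same in the model and TA groups except that Slc25a15 stood above Otc in both. In the model group, Slc25a15 had 109 ± 84.7 FPKM and Otc 80.2 ± 34.7 FPKM, and in the TA group 142 ± 60.2 and 128 ± 61.1 FPKM, so that their livers overlapped in both groups. FPKM carry no TMM normalization, so they order the genes within a group and are not read between groups. The model livers overlapped between all neighbours in the order except Otc and Nags. In the TA group, Ass1 (1246 ± 380 FPKM) did not overlap with Arg1 (626 ± 184 FPKM), nor Otc with Nags (50.3 ± 1.44 FPKM), and the other neighbours overlapped.

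**Figure D1:**
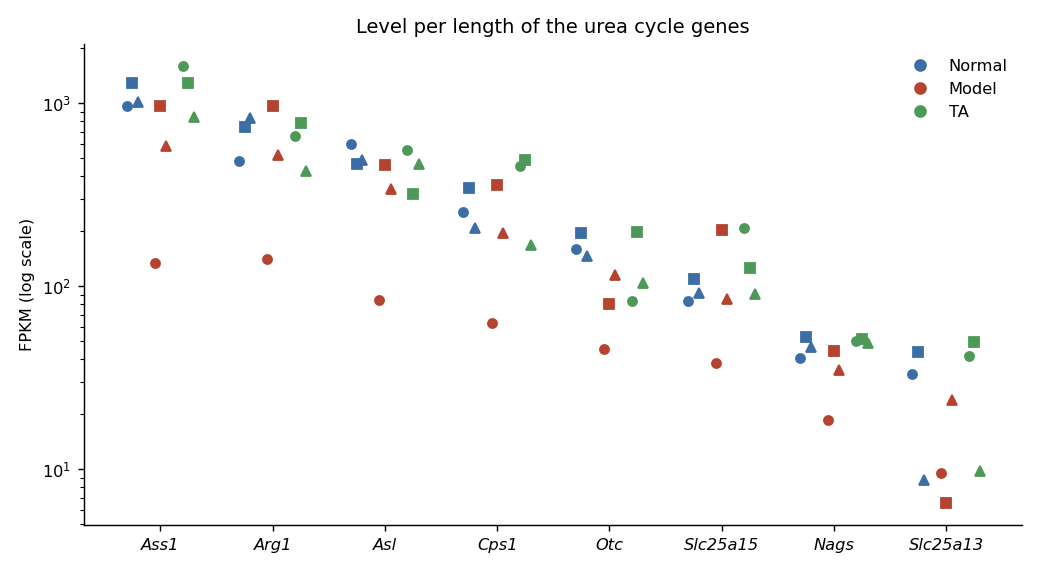
FPKM of the 8 urea cycle genes on a log axis, ordered by their mean in the normal control group, with 1 point per liver (circle, square and triangle for rats 1, 2 and 3; colour for the group). Ass1 had the highest mean in each group and Slc25a13 the lowest, and the model livers spread most widely for every gene except Slc25a13.

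In Model VS Normal, every member had a lower fitted level in the fibrotic livers, with log2 fold changes from −1.58 to −0.28 and a median of −1.14, whereas the median over all 12730 genes tested was 0.02. No member passed an adjusted p of 0.05 in edgeR's quasi-likelihood test (0 of 8, where 7.87% of all genes passed in either direction). At the thresholds the study used, an unadjusted p under 0.05 and an absolute log2 fold change above 1, Nags and Otc were lower (2 of 8, where 5.55% of all genes were lower). DESeq2 put 5 of 8 past those thresholds (Asl, Ass1, Nags, Otc and Slc25a13), all lower in the model group. It put 24.5% of all genes past them in either direction, against 22.1% in edgeR. The share of all genes that were lower was not computed for DESeq2. The livers of the groups did not overlap for Nags, Otc, Ass1 and Asl, all lower in the model group (4 of 8, where 17.4% of all genes were). The 16 hepatocyte secretory genes had negative log2 fold changes as well, with a median of −0.86, and 2 of them met the study's thresholds. Levels below are CPM, read counts scaled to a fixed total after TMM normalization over all 9 livers, and each log2 fold change comes from the fit to the groups compared.

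Of the mitochondrial enzymes, Otc differed most. Otc was measured at 322, 392 and 308 CPM in the normal rats, at 46.2, 118 and 187 CPM in the model rats and at 143, 377 and 194 CPM in the TA rats. Every model liver lay below every normal liver, and the TA livers spanned the gap between them. The log2 fold change of Otc in Model VS Normal was −1.54 (SE 0.50, adjusted p = 0.0930). Without the first model rat it was −1.18 (adjusted p = 0.0553), and without the third it was −2.07 (adjusted p = 0.0264), so that the call at the adjusted p turned on 1 library. DESeq2 (adjusted p = 0.0125) and limma voom (adjusted p = 0.00838) passed Otc on all 6 livers. Nags had 101, 130 and 121 CPM in the normal rats, 23.2, 80.6 and 69.7 CPM in the model rats and 107, 122 and 112 CPM in the TA rats. The TA livers thus lay within the range of the normal livers and above every model liver. The log2 fold change of Nags in Model VS Normal was −1.02 (SE 0.44, adjusted p = 0.170), and it was −0.66 (adjusted p = 0.129) without the first model rat, no longer beyond the study's thresholds. Cps1, which makes one of the most abundant proteins of liver mitochondria, had 1749, 2336 and 1487 CPM in the normal rats, 216, 1807 and 1080 CPM in the model rats and 2673, 3178 and 1071 CPM in the TA rats. The second model liver was higher than a pair of the normal livers, and the third TA liver was as low as the third model liver. The log2 fold change of Cps1 was −0.84 (SE 0.73, adjusted p = 0.468), and without the first model rat −0.39 (adjusted p = 0.574).

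The cytosolic enzymes were low above all in the first model liver. Ass1, which brings in the nitrogen of aspartate, had 2516, 3300 and 2749 CPM in the normal rats, 175, 1840 and 1228 CPM in the model rats and 3559, 3159 and 2041 CPM in the TA rats. Both the normal and the TA livers lay above every model liver. For Ass1, the log2 fold change in Model VS Normal was −1.40 (SE 0.79, adjusted p = 0.279), and −0.92 (adjusted p = 0.149) without the first model rat. Asl was at 1270, 969 and 1080 CPM in the normal rats, at 88.8, 717 and 581 CPM in the model rats and at 998, 640 and 911 CPM in the TA rats. The model livers were all below the normal livers, while the second TA liver fell between the model livers. The log2 fold change of Asl was −1.26 (SE 0.70, adjusted p = 0.272), and −0.79 without the first model rat. Arg1, which releases urea, had 860, 1288 and 1528 CPM in the normal rats, 126, 1251 and 740 CPM in the model rats and 1004, 1310 and 694 CPM in the TA rats. These groups overlapped, and the second model liver was near the middle of the normal range. For Arg1, it was −0.79 (SE 0.75, adjusted p = 0.508), and −0.32 without the first model rat.

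The 2 carriers did not move alike. Slc25a15 had 377, 489 and 432 CPM in the normal rats, 86.2, 671 and 310 CPM in the model rats and 801, 537 and 379 CPM in the TA rats. The model livers spread 7.78-fold and held both the lowest value of all 9 livers and the highest but one. The fitted log2 fold change of Slc25a15 was −0.28 (SE 0.65, adjusted p = 0.803) and became 0.16 without the first model rat, so that its sign rested on 1 library. Slc25a13 had 57.3, 74.4 and 15.6 CPM in the normal rats, 8.16, 8.22 and 33.1 CPM in the model rats and 60.9, 79.8 and 15.6 CPM in the TA rats. Low values were seen in the third rats of the normal and TA groups and in the first and second model rats. Slc25a13 had a log2 fold change of −1.58 (SE 0.71, adjusted p = 0.184) with all livers and −2.61 (adjusted p = 0.0281) without the third model rat. It was −1.29 (adjusted p = 0.321) without the first model rat, and limma voom with sample quality weights passed it on all 6 livers (adjusted p = 0.0142).

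**Figure D2:**
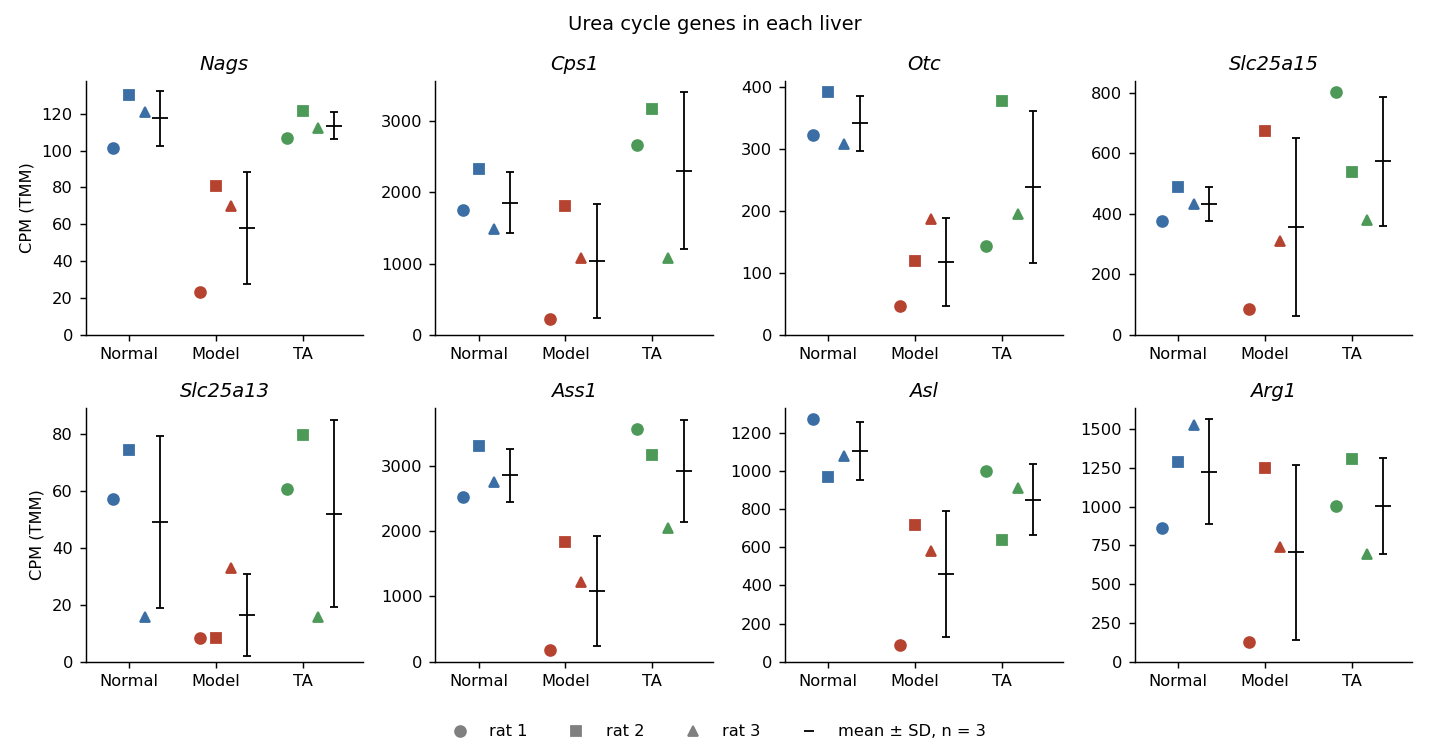
CPM after TMM normalization of the 8 urea cycle genes in each liver, by group, with the mean ± SD of the 3 rats beside the points. The first model rat (circle) had the lowest value of all 9 livers for each gene, and the model livers did not overlap the normal livers for Nags, Otc, Ass1 and Asl.

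Summed over the 8 members, the level was 7253, 8978 and 7721 CPM in the normal rats, 770, 6493 and 4227 CPM in the model rats and 9347, 9403 and 5417 CPM in the TA rats. These transcripts made up between 0.130% and 0.930% of the counted reads of a liver, the lowest share being that of the first model rat. Markers of some other cell types went the other way in the model rats. The summed level of 10 stellate cell and myofibroblast genes was 246 to 390 CPM in the normal rats and 699 to 1191 CPM in the TA rats. In the model rats it was 12946, 1287 and 1511 CPM, and 9 of the 10 were higher in the model group at the study's thresholds (16.6% of all genes were). The 7 cholangiocyte genes summed to 18.2 to 31.7 CPM in the normal rats and 35.2 to 56.4 CPM in the TA rats. In the model rats they summed to 2018, 205 and 126 CPM, and Spp1 alone had 1848 CPM in the first. All 7 were higher in the model group at those thresholds. The 8 macrophage genes summed to 317 to 469 CPM in the normal rats and 343 to 735 CPM in the TA rats. The model rats had 2372, 421 and 540 CPM, so that the groups overlapped. Of these, 5 were higher and 1, Marco, was lower in the model group at the study's thresholds (Marco −2.17, adjusted p = 0.0639), and the Kupffer cell gene Clec4f had −1.50 (adjusted p = 0.179). The 7 endothelial genes summed to 223 to 245 CPM, 206 to 468 CPM and 236 to 343 CPM in the normal, model and TA rats, with a median log2 fold change of 0.02 in Model VS Normal. The 6 lymphocyte genes summed to 24.6 to 38.8 CPM, 54.5 to 74.0 CPM and 31.5 to 41.6 CPM. Most of these sums was Ptprc, with means of 25.1, 49.5 and 25.6 CPM. The 8 markers of periportal hepatocytes summed to 5536 to 6999 CPM in the normal rats and to 450 to 3344 CPM in the model rats. The 9 markers of pericentral hepatocytes summed to 5308 to 7069 CPM and 1235 to 5594 CPM, so that these groups overlapped. Most of the normal sums was Pck1 and Cyp2e1, with normal means of 4435 and 4137 CPM. In each list 7 of 8 tested genes had negative log2 fold changes in Model VS Normal, all but Cdh1 (0.10) and Axin2 (0.27). The first model rat also held the highest endothelial and lymphocyte sums and the lowest periportal and pericentral sums. The part of these cell type markers in the levels of the urea cycle genes was not tested.

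In TA VS Model, all 8 members had positive log2 fold changes, from 0.51 for Arg1 to 1.67 for Slc25a13, with a median of 1.00 against 0.00 over all 12781 genes tested. None passed an adjusted p of 0.05 in edgeR, where 0% of all genes did, and none had an unadjusted p under 0.05, where 15.6% of all genes did. DESeq2 and limma voom passed 0 members at the adjusted p as well, where they passed 4.23% and 1.32% of all genes. At the study's thresholds the count was 0 of 8, where 2.11% of all genes were higher in the TA group and 12.3% differed in either direction. DESeq2 and limma voom each put 2 of 8 past those thresholds, Ass1 and Slc25a13. These methods put 14.6% and 13.4% of all genes past them in either direction. The TA and model livers did not overlap for Nags and Ass1, both higher in the TA group (2 of 8, where 10.3% of all genes were). Since both comparisons share the 3 model rats, a low model liver makes the first more negative and the second more positive. For Otc the log2 fold changes were −1.54 in Model VS Normal and 1.03 (SE 0.57, adjusted p = 0.399) in TA VS Model. For Nags they were −1.02 and 0.98 (SE 0.44, adjusted p = 0.327), for Ass1 −1.40 and 1.44 (SE 0.82, adjusted p = 0.407), and for Slc25a13 −1.58 and 1.67 (SE 0.73, adjusted p = 0.322). Cps1 had 1.16 (SE 0.81), Asl 0.88 (SE 0.71), Slc25a15 0.69 (SE 0.70) and Arg1 0.51 (SE 0.75) in TA VS Model, with adjusted p-values between 0.483 and 0.751. Without the first model rat, the differences between TA and model livers were smaller for every member, with 0.61 for Nags, 0.65 for Otc, 0.94 for Ass1, 1.34 for Slc25a13, 0.69 for Cps1, 0.40 for Asl, 0.24 for Slc25a15 and 0.03 for Arg1.

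TA VS Normal compared rats treated with CCl4 and TA with rats that had received neither. Slc25a15, Cps1, Slc25a13 and Ass1 had log2 fold changes of zero or above and the other members below, from −0.55 for Otc to 0.38 for Slc25a15. No member passed either threshold (0 of 8, where 0.263% of all 12179 genes passed the adjusted p and 5.25% the study's thresholds), and 0 of 8 had an unadjusted p under 0.05, where 9.43% of all genes did. The normal and TA livers overlapped for all 8 members, where 14.9% of all genes did not overlap. The log2 fold change of Nags was −0.08 (SE 0.19) and that of Ass1 0.00 (SE 0.27), with adjusted p-values of 0.965 and 0.999. Otc had −0.55 (SE 0.35, adjusted p = 0.748), with a mean of 238 ± 123 CPM in the TA group against 341 ± 44.9 CPM in the normal control group. Asl had −0.41 (SE 0.24, adjusted p = 0.703). Rats with the same number deviated together in this comparison, and in each of the 3 pairs the TA rat had less Otc and less Asl than the normal rat. With the replicate number as a block, the log2 fold change was −0.66 for Otc (adjusted p = 0.191) and −0.43 for Asl (adjusted p = 0.227). In that fit 0 of 8 members passed either threshold, where 1.67% of all genes passed the adjusted p and 5.99% the study's thresholds. An unadjusted p under 0.05 was then reached by 18.7% of all genes, against 9.43% without the block. The SE was largest for Slc25a13, at 0.05 (SE 0.65, adjusted p = 0.995). A p that misses the threshold does not show that treated and normal livers had the same level.

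**Figure D3:**
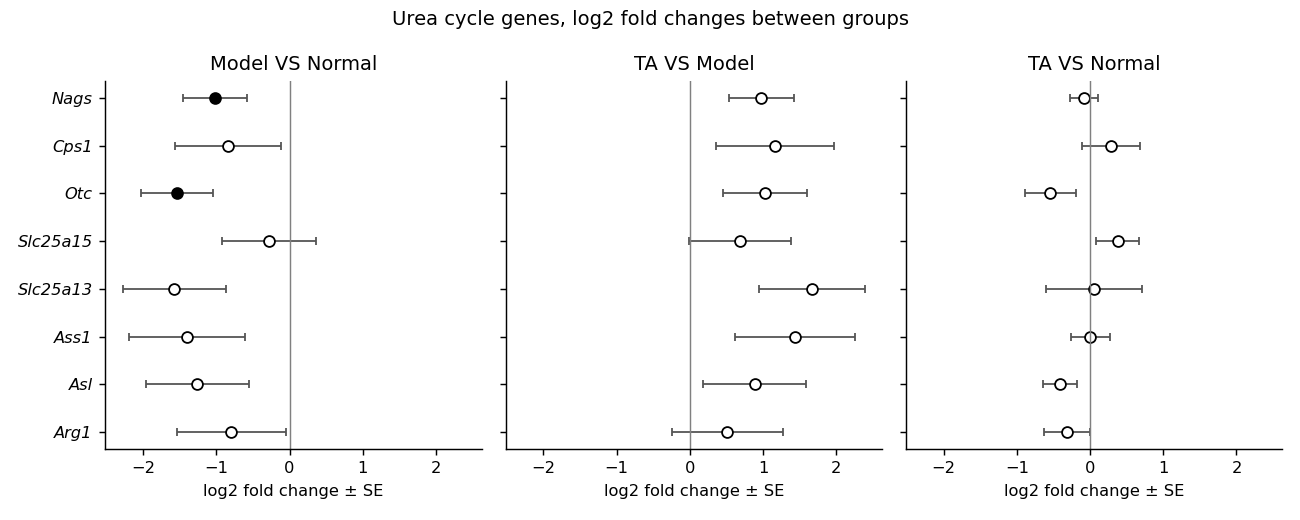
log2 fold change ± SE of each urea cycle gene in the 3 comparisons, from edgeR's quasi-likelihood fit, with filled points for genes that met the study's thresholds. The points lie from −1.58 to −0.28 in Model VS Normal and from 0.51 to 1.67 in TA VS Model, and only Nags and Otc in Model VS Normal are filled.

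Because the hepatocyte genes were also lower in the model livers, each member was set against them. The log2 ratio of its CPM to the geometric mean of the 16 hepatocyte secretory genes was taken within each liver. On this scale the median difference over the members in Model VS Normal was −0.31, and 7 of 8 were negative. Otc was the member whose groups did not overlap (1 of 8, where 51.7% of all 12616 genes with a count in every liver did not overlap on this scale in either direction). The share of all genes that were lower in the model group on this scale was not computed. With library factors from the same hepatocyte genes, the median log2 fold change of all genes was 1.39, toward the model group. The log2 ratios of Otc were −4.60, −4.15 and −4.34 in normal livers, −4.95, −5.15 and −4.78 in model livers and −5.28, −4.17 and −4.82 in TA livers. The model livers were thus all lower in Otc per hepatocyte transcript, by 0.60 on average (exact permutation test of 3 against 3, two-sided, p = 0.1, the smallest that this design allows). The TA livers were divided, the second at the normal level, the third among the model livers and the first below them. For Nags the difference between model and normal livers was −0.05, for Cps1 −0.13 and for Arg1 −0.14, with exact permutation p-values of 0.9, 0.8 and 0.8. The ratios of Ass1 were −1.63, −1.07 and −1.18 in normal livers and −3.03, −1.19 and −2.07 in model livers, so that the second model liver lay within the normal range (difference −0.80, exact permutation p = 0.2). Asl differed by −0.57 (exact permutation p = 0.3), Slc25a13 by −0.48 (exact permutation p = 0.5) and Slc25a15 by 0.44 (exact permutation p = 0.6). Without the first model rat the difference was −0.60 for Otc, −0.71 for Slc25a13, −0.33 for Ass1, −0.18 for Asl and 0.67 for Slc25a15. Nags was then at −0.06, and Cps1 and Arg1 became positive, at 0.20 and 0.28. In TA VS Model all 8 differences were positive, with a median of 0.33, and in TA VS Normal 5 of 8 were positive, with a median of 0.21. The groups overlapped for every member in both comparisons, where 29.3% and 18.6% of all genes, counted in either direction, did not. Albumin alone as the reference left 1 member without overlap in Model VS Normal, and so did the list without its acute phase proteins. The share of all genes was not computed for these references.

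**Figure D4:**
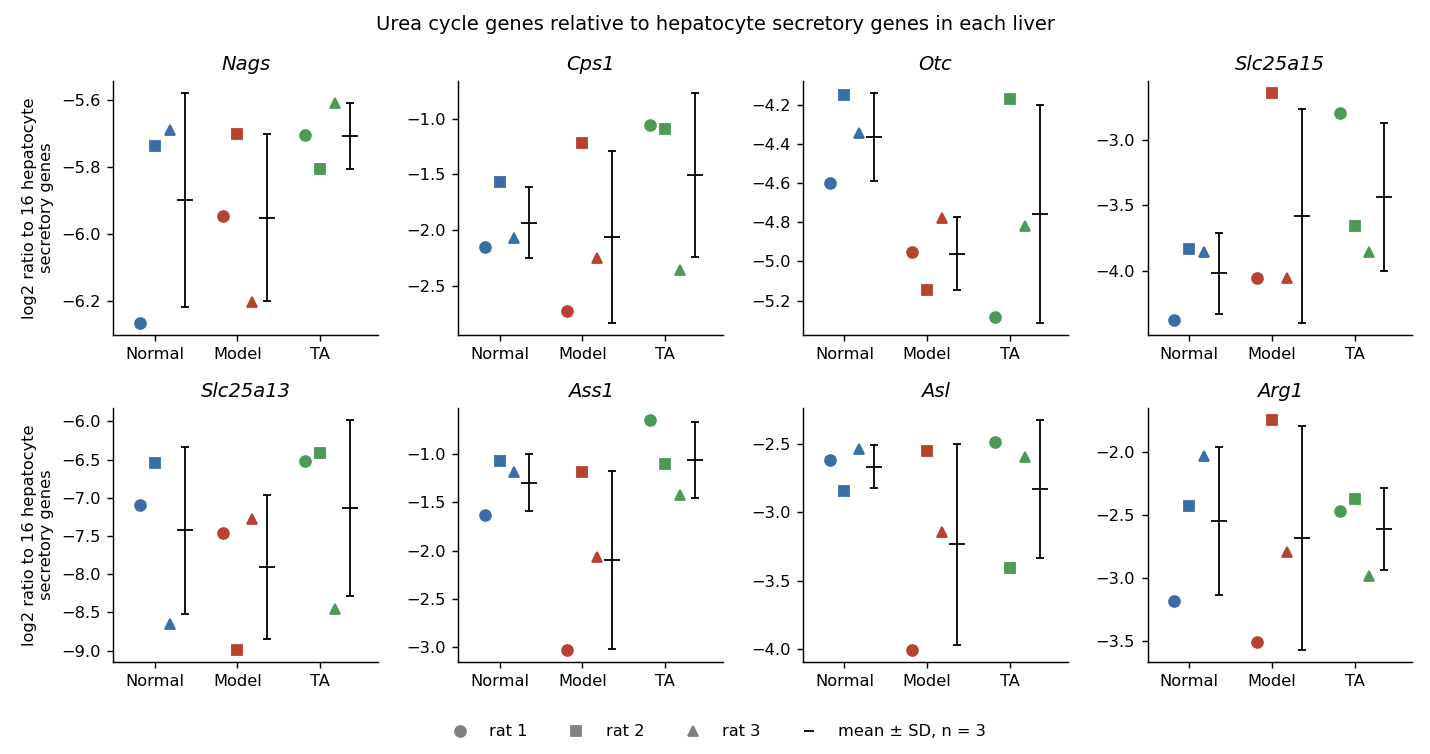
log2 ratio of each urea cycle gene to the geometric mean of 16 hepatocyte secretory genes in each liver, by group, with the mean ± SD of the 3 rats. The model livers lie below all normal livers for Otc, at −4.95, −5.15 and −4.78 against −4.60, −4.15 and −4.34, and overlap with them for the other 7 genes.

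The proportions of the members to each other can be read within a liver, where the scaling of the libraries does not enter. Of the 28 pairs of members, the ratio did not overlap between model and normal livers for 5, between TA and model livers for 2 and between TA and normal livers for 2. Over all pairs of the 12616 genes, the shares without overlap were 38.9%, 22.7% and 16.2%, each above that of the members' pairs. The pairs below were described after the members' values had been seen. The ratio of ornithine carrier to Ass1 counts (Slc25a15/Ass1) was 0.150, 0.148 and 0.157 in normal livers. It was 0.492, 0.365 and 0.252 in model livers and 0.225, 0.170 and 0.186 in TA livers, so that no group overlapped with another and the TA livers lay between the other groups. Ass1/Arg1 was 2.93, 2.56 and 1.80 in normal livers, 1.39, 1.47 and 1.66 in model livers and 3.54, 2.41 and 2.94 in TA livers, lowest in the model group. Otc/Slc25a15 was 0.856, 0.802 and 0.713 in normal livers, 0.536, 0.176 and 0.604 in model livers and 0.179, 0.702 and 0.513 in TA livers. For this pair of mitochondrial proteins, both CCl4-treated groups lay below the normal control group. The other pairs whose model and normal livers did not overlap were Cps1/Ass1 and Slc25a15/Asl, both higher in the model group.

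Over the 9 livers, the members whose profiles were most alike were Cps1 and Ass1. The root mean square difference of their centred log2 CPM was 0.39, and it was largest between Slc25a13 and Arg1, at 1.18. Slc25a13 varied 4.77-fold among the normal livers, whereas the other 7 members varied between 1.27-fold and 1.78-fold. Among 8091 genes, profiles close to that of Slc25a13 were those of Sult1c3 (a sulfotransferase), Ttpa (the α-tocopherol transfer protein of hepatocytes), Hadh (an enzyme of mitochondrial fatty acid oxidation) and Fads2 (a fatty acid desaturase), with root mean square differences of 0.30 to 0.37. These were named after the values were seen. Ttpa, for example, was at 115, 193 and 38.2 CPM in the normal rats, 11.5, 25.1 and 76.5 CPM in the model rats and 110, 163 and 30.1 CPM in the TA rats. Its low livers were the same 4 as those of Slc25a13.

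The 5 genes closest to the mean profile of the 8 members were Dmgdh, Bhmt2, Clcn4, Slc38a4 and Aldh6a1, with root mean square differences of 0.20 to 0.21 over 9 livers and 8084 genes, where the members' mean profile itself varied by 0.93 around its mean. Dmgdh, a mitochondrial enzyme of choline breakdown, was at 261, 306 and 305 CPM in the normal rats, 33.0, 175 and 167 CPM in the model rats and 210, 280 and 174 CPM in the TA rats. The first model liver was the lowest of the 9. Slc38a4, a transporter of neutral and cationic amino acids, was at 806, 982 and 923 CPM in the normal rats, 88.4, 653 and 437 CPM in the model rats and 732, 866 and 483 CPM in the TA rats. Bhmt2 methylates homocysteine, Aldh6a1 takes part in valine breakdown and Clcn4 is a chloride and proton exchanger. These likenesses are descriptions over 9 livers that share the spread of the first model rat.

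The genes around the cycle were taken from a list of 45 that supply its nitrogen and bicarbonate, use its ornithine and arginine, make glutamine, turn over aspartate and fumarate, or regulate it. Of these, 41 were listed and 35 were tested in Model VS Normal. At an adjusted p of 0.05, 2 were higher and 3 lower in the model group (5 of 35, against 7.87% of all genes in either direction). At the study's thresholds 2 were higher and 13 lower (15 of 35, against 22.1% of all genes in either direction, 16.6% higher and 5.55% lower). The median log2 fold change of the list was −0.98. The 5 calls at the adjusted p were unstable, and the share of all genes called moved in the same direction. Leaving out any of the normal rats removed all 5, where 0% to 0.385% of all genes were called. Leaving out the second model rat left 1 (4.54% of all genes). Leaving out the first model rat (6.89% of all genes) lost those of Slc7a1 and Gpt2 and gained that of Klf15. Leaving out the third model rat gave 12 (19.3%), while DESeq2 called 13 (20.8%) and limma voom 17 (27%).

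Cationic amino acid transporters bring arginine into cells, and a pair of them had log2 fold changes of opposite sign at the study's thresholds. Slc7a1, the broadly expressed member that is scarce in normal hepatocytes, rose from 0.75, 0.39 and 0.50 CPM in the normal rats to 5.56, 3.95 and 1.70 CPM in the model rats (log2 fold change 2.78, SE 0.60, adjusted p = 0.0353). On the other 5 livers, leaving out model rat 1, Slc7a1 had a log2 fold change of 2.35 (adjusted p = 0.0573). The normal values rest on 6 to 9 counts per liver, and the TA rats had 2.49, 1.61 and 0.89 CPM. Slc7a2, the low-affinity transporter of hepatocytes, met the study's thresholds in the other direction, with 62.5, 174 and 27.8 CPM in the normal rats and 4.75, 31.3 and 31.0 CPM in the model rats (log2 fold change −1.98, SE 0.82, adjusted p = 0.158), and the groups overlapped.

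Ca5a, the mitochondrial carbonic anhydrase that supplies bicarbonate to Cps1, fell in the model group. It was at 81.0, 103 and 124 CPM in the normal rats, 7.36, 28.3 and 29.3 CPM in the model rats and 46.8, 71.6 and 66.7 CPM in the TA rats, so that the TA livers lay between the other groups without overlap. Its log2 fold change was −2.25 (SE 0.50, adjusted p = 0.0394) in Model VS Normal and 1.52 (SE 0.49, adjusted p = 0.264) in TA VS Model. Cebpb, a transcription factor of the C/EBP family that acts on urea cycle and gluconeogenic genes, fell from 654, 794 and 613 CPM in the normal rats to 215, 184 and 281 CPM in the model rats (log2 fold change −1.60, SE 0.36, adjusted p = 0.0398). In the TA rats it was at 559, 377 and 503 CPM, above every model liver and below every normal liver. The alanine aminotransferases move nitrogen between alanine and glutamate. Gpt2, the mitochondrial one, fell with a log2 fold change of −1.54 (SE 0.38, adjusted p = 0.0496), just inside the threshold, and had −1.28 (adjusted p = 0.0538) without the first model rat. Gpt, the cytosolic one, had the most negative log2 fold change of the list, at −2.59 (SE 0.82, adjusted p = 0.0874), with 328, 549 and 611 CPM in the normal rats and 14.3, 56.0 and 177 CPM in the model rats. Klf15, a regulator of amino acid breakdown during fasting, met the study's thresholds at −1.92 (SE 0.52, adjusted p = 0.0606). Without the first model rat Klf15 had −1.52 (adjusted p = 0.0187).

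In TA VS Model, 36 genes of the list were tested and none passed the adjusted p in edgeR, where 0% of all genes did. DESeq2 passed 5 (4.23% of all genes) and limma voom 3 (1.32%). At an unadjusted p under 0.05, 9 were higher and 1 was lower in the TA group, and these 10 also met the study's thresholds. Of all genes, 12.3% met those thresholds in either direction and 2.11% were higher in the TA group. The largest positive log2 fold changes were those of Slc1a2, Gpt and Oat. Slc1a2, a glutamate transporter of pericentral hepatocytes, had 11.9, 20.5 and 8.47 CPM in the normal rats, 0.58, 3.88 and 6.86 CPM in the model rats and 22.1, 27.7 and 12.2 CPM in the TA rats (TA VS Model 2.47, SE 0.75, adjusted p = 0.258). Every model liver lay below all normal and TA livers. Gpt was at 317, 485 and 501 CPM in the TA rats, near its normal range and above every model liver (TA VS Model 2.41, SE 0.81, adjusted p = 0.265). Ornithine aminotransferase (Oat), which draws ornithine away from the cycle toward glutamate, had 448, 435 and 442 CPM in the normal rats, 56.7, 106 and 333 CPM in the model rats and 503, 703 and 379 CPM in the TA rats (TA VS Model 1.68, SE 0.66, adjusted p = 0.296). In TA VS Normal 0 of 36 genes passed the adjusted p in edgeR (0.263% of all genes did), and 7 had an unadjusted p under 0.05 (9.43%). Slc7a1 met the study's thresholds (log2 fold change 1.58, SE 0.57, adjusted p = 0.406), where 5.25% of all genes did.

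**Figure D5:**
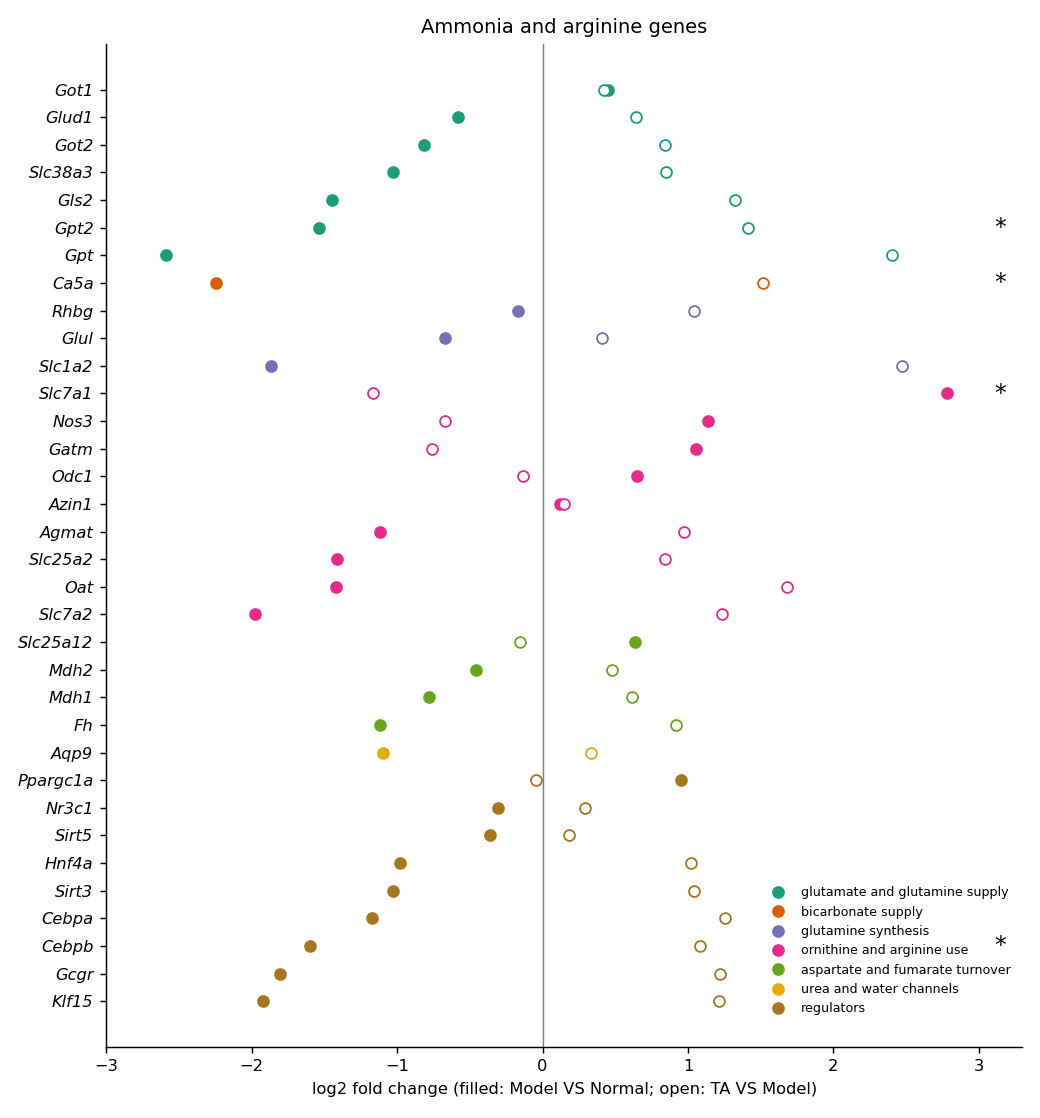
log2 fold changes of genes of the ammonia and arginine list in Model VS Normal (filled points) with their values in TA VS Model (open points), grouped by role in colour, and an asterisk for an adjusted p under 0.05 in Model VS Normal. Of the genes with an asterisk at the right margin, the filled point of Slc7a1 lies to the right of zero, at 2.78, and those of Ca5a, Cebpb and Gpt2 lie to the left.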

How the data were processed

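Liver RNA of 9 rats was sequenced, and the groups were taken from the sample labels. Per the paper's methods, the authors selected polyadenylated RNA, mapped trimmed reads with STAR and counted them per gene. The reference build is not settled by the sources, since the methods name hg19, the submitters' processing notes mm9, and the symbols are rat symbols. As deposited, the tables hold raw read counts of each gene, which every test used, and FPKM values, which were used to compare levels between genes. In the files, 12 columns of normalized values per sample were not used, nor were the results of the authors' own DESeq2 comparisons (log2 fold change, p and adjusted p).

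Counts were tested with edgeR 4.0.16 in R 4.3.3 (quasi-likelihood test in its default form, TMM, filterByExpr, only the groups compared, Benjamini-Hochberg over all genes tested). SEs were obtained from the log2 fold change and the square root of F. TA VS Normal joined the tables over 16730 shared genes, and the model counts were equal in both. The scripts were tested on simulated data. DESeq2 1.42.0, limma 3.58.1, other scalings and filters, a replicate block and leaving out each rat were alternatives. Same-numbered rats deviated together in TA VS Normal (r of 0.233, 0.370 and 0.452) but not in the other comparisons (r from −0.05 to 0.21), and the numbers come from the labels. Nothing states how the animals were housed or processed together, so p-values measure the spread between these rats. The members and lists were chosen with earlier results of these data known. All 8 members were named, and of the ammonia and arginine list those with an adjusted p under 0.05 and the 3 with the largest change in each direction at the study's thresholds. A few genes are not reported here by name, although the counts include them.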

Additional observations from a re-analysis of the deposited data

How the results depend on the processing

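With 3 rats per group, an exact permutation test cannot give a p below 0.1, and 1 rat can set a result. Other scalings moved all genes together. In Model VS Normal the median log2 fold change of all genes was 0.65 on library totals and 1.39 on factors from the hepatocyte genes, in TA VS Model −0.48 and −1.15, and in TA VS Normal 0.18 and 0.26. Relative to these medians, all 8 members stayed negative in Model VS Normal and positive in TA VS Model under both scalings, and Otc in Model VS Normal was at −1.71 on library totals. A change of library factors shifts all genes by a similar amount, and subtracting the median takes most of that shift out again. These signs were therefore nearly fixed by the main fit and are no separate check.

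The count of members called at the adjusted p in Model VS Normal was 0 in edgeR, 1 with DESeq2, 2 with limma voom and 0 to 2 when each rat was left out, where 7.87%, 20.8%, 27% and 0% to 19.3% of all genes were called. These shares of all genes, and those below, are for either direction. At the study's thresholds it was 2 in edgeR (22.1% of all genes), 1 on library totals (31.1%), 0 on hepatocyte scaling (43.7%), 5 with DESeq2 (24.5%) and 1 to 3 when each rat was left out (16% to 29.8%), the 1 being Otc without the first or second normal rat or the first model rat. In TA VS Model the count at those thresholds was 0 in edgeR (12.3% of all genes), 1 with DESeq2's size factors (12.2%) or with no filter on low counts (11.9%), 2 with DESeq2 (14.6%) and 2 with limma voom (13.4%), and 0 to 2 when each rat was left out (6.13% to 21.2%). In TA VS Normal it was 0 (5.25%), and 0 to 1 when each rat was left out (4.25% to 7.39%), the 1 being Otc without the second TA rat. With the replicate block, the count in TA VS Model at the study's thresholds was 2 (Nags and Otc, with 13.4% of all genes). Of the same-numbered rats in that comparison, only the first deviated together. In TA VS Normal, where same-numbered rats deviated together, the block turned Ass1 to −0.028 and changed no call of a member.

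Members set against the hepatocyte genes without overlap numbered 1 to 4 in Model VS Normal, 0 to 3 in TA VS Model and 0 to 3 in TA VS Normal when each rat was left out, and 1 in TA VS Normal with albumin alone and 1 with the list without acute phase proteins. Groups separate more easily with a rat left out. The shares of all genes were not computed under these settings, so these counts cannot be set against them. For the ammonia and arginine list, calls at the adjusted p in Model VS Normal were 5 in edgeR, 13 with DESeq2 and 17 with limma voom. They were 0 to 12 when each rat was left out. The shares of all genes were 7.87%, 20.8%, 27% and 0% to 19.3%. In TA VS Model they were 0 in edgeR, 5 with DESeq2 and 3 with limma voom, where 0%, 4.23% and 1.32% of all genes were called. At the study's thresholds the list had 10 genes in TA VS Model (12.3% of all genes). It had 6 on hepatocyte scaling (29.1%) and 5 to 15 when each rat was left out (6.13% to 21.2%). In TA VS Normal it had 1 (5.25%), 2 on library totals (6.54%) and 2 on hepatocyte scaling (7.37%). It had 0 with at least 1 CPM in every library of a group (5.17%) and 0 to 3 when each rat was left out (4.25% to 7.39%).

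Some signs turned. Slc25a15 in Model VS Normal was 0.20 on library totals and 0.58 on hepatocyte scaling, which move all genes, and relative to the median of all genes it was −0.45 and −0.81. It was 0.32 with limma voom, and −1.13 to 0.16 when each rat was left out. Arg1 in TA VS Model was −0.085 on hepatocyte scaling, and 1.06 relative to the median. In TA VS Normal, Nags was 0.10 on library totals, 0.17 on hepatocyte scaling and −0.18 to 0.0014 when each rat was left out. Leaving out each rat gave −0.032 to 0.63 for Cps1, −0.41 to 0.49 for Slc25a13 and −0.17 to 0.21 for Ass1, and Ass1 was −0.00037 with DESeq2's size factors, −0.00037 with DESeq2 and −0.0034 with no filter. The summed level of the members in the normal control group was 7984 CPM, and 6716 CPM on library totals. All other alternatives kept the direction of each member's log2 fold change. The cause of these changes was not tested.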
